A study of Mus musculus with 4 samples.

Results

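The genes of cholesterol and fatty acid synthesis were followed in mouse skin across an allergen model and an Egr1 knockout. The group held 28 gene symbols, taken by name from the deposited log2 tables, out of 23203 symbols that stood on 1 line of those tables. All 28 were in the tables, and 27 of them were among the 11624 genes called measured, those with a mean log2 value over the 4 libraries above the median of all genes (5.10). Stard4 lay just inside this limit with a mean of 5.47, and Tm7sf2 was the member below it with a mean of 3.48. By role, 7 members belong to the mevalonate pathway, 11 to the path between farnesyl diphosphate and cholesterol, 4 to its regulation, 4 to fatty acid synthesis and 2 to sterol handling.

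The skin came from adult C57BL/6 mice, and each of the 4 groups was 1 library. The groups were Egr1 knockout (Egr1-/-) skin treated with house dust mite (HDM) allergen, Egr1 knockout naive skin, wild-type (WT, Egr1+/+) skin treated with HDM, and WT naive skin. The study asked how the transcription factor EGR1 bears on skin innervation in a model of atopic dermatitis. Per the labels, ear and neck skin was shaved and coated with sodium dodecyl sulfate (SDS), a detergent that opens the skin barrier, and 100 mg of HDM cream was then spread on it, with all steps repeated 2 times per week over 3 weeks. Both naive groups carry SDS as their treatment label, so what their labels lack is the HDM extract. Mice were bred by crossing homozygous with heterozygous animals, and PCR assigned their genotype. How many mice went into a library is not given in the sources used here.

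Cells make cholesterol out of acetyl-CoA through the mevalonate pathway, which ends in farnesyl diphosphate, and then through squalene, lanosterol and a chain of demethylation, reduction and isomerisation steps. Most of these enzymes, and those of fatty acid synthesis, are transcribed under the sterol regulatory element-binding proteins (SREBPs), encoded by Srebf1 and Srebf2. SCAP escorts SREBPs out of the endoplasmic reticulum when sterols are low, and INSIG proteins hold the complex back when sterols are high. In skin, keratinocytes use cholesterol and fatty acids for the lipid layers of the barrier, and sebaceous glands make large amounts of lipid for sebum.

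The promoters of 4 members are shown because these genes mark the ends of the averaged HDM differences or carry the sterol element itself. Srebf2 had the highest HDM difference, averaged over both genotype labels, among members with a promoter sequence. That average rests on 5 reads in KO-labelled naive skin, and in WT skin Ebp was higher (1.71, against 1.37 for Srebf2). Insig1 and Msmo1 had the lowest average, −0.74 each, with Srebf1 (−0.73) and Hsd17b7 (−0.71) close to them. For Msmo1 the difference was −1.71 in WT skin and 0.23 in KO-labelled skin. Hmgcs1, the gene of the enzyme that makes HMG-CoA for the mevalonate pathway, held the sterol element. Each sequence is the 250 bases before the gene start in RefSeq on GRCm38.p6, written 5′ to 3′ on the gene's strand. Capitals mark any of 5 motifs on either strand: TCACNCCAC (sterol element), CCAAT (NF-Y box), GGGCGG (Sp1 box), CACGTG (E-box) and GCGNGGGCG (EGR1 element).
Srebf2, chr15:82147019-82147268, plus strand: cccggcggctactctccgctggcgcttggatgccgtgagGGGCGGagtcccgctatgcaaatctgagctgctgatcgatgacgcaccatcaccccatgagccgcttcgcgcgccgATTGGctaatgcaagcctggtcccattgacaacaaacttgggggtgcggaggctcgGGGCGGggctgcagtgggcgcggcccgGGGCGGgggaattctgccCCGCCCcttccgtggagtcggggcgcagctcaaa
Msmo1, chr8:64733579-64733828, minus strand: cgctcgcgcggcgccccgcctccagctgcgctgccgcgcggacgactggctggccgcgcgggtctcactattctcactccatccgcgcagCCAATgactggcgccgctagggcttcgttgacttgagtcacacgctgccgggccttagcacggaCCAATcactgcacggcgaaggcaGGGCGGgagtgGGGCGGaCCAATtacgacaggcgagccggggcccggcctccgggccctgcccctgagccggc
Insig1, chr5:28071162-28071411, plus strand: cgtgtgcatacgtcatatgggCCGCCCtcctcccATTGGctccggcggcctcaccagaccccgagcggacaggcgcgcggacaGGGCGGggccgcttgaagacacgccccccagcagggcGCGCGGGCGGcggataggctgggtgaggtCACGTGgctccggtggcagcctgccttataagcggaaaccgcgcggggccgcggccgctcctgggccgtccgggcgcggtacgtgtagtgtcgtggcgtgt
Hmgcs1, chr13:119690101-119690350, plus strand: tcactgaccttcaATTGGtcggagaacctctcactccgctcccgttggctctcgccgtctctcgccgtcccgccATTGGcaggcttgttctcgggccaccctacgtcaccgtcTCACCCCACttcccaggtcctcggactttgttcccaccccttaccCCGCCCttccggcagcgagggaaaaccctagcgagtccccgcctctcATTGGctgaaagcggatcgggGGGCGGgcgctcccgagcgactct
In Srebf2, Msmo1 and Insig1 the GENCODE gene start lies inside the printed stretch, so the RefSeq start is not the first one known.

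RefSeq windows of 250 bases before to 50 bases after the start were found for 24 of the 28 members, not for Fdps, Fdft1, Sqle and Stard4. The CCAAT box occurred in 20 of the 24 (83.3%), against 39.7% of measured genes and 33.9% of all windows. The box is known to bind NF-Y, a frequent partner of SREBPs. GGGCGG also occurred in 20 (83.3%), against 64.0% of measured genes and 32.7% of all windows. CACGTG occurred in 5, Dhcr7, Hsd17b7, Insig1, Sc5d and Scap (20.8%, against 9.93% of measured genes and 6.02% of all windows). TCACNCCAC was in 1 member, Hmgcs1, where it begins 137 bases before the start (4.17%, against 1.20% of measured genes and 1.05% of all windows). The EGR1 letters GCGNGGGCG were in Insig1 and Dhcr7 (8.33%, against 10.5% of measured genes and 4.70% of all windows). In both genes such a match overlaps a GGGCGG on the same strand. A gene with several RefSeq starts counted once if any of its windows matched. These counts describe letters in a fixed window.

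Recovered reads numbered 10107861 for KO-labelled HDM skin, 9926809 for KO-labelled naive skin, 9428592 for WT HDM skin and 9592063 for WT naive skin. KO-labelled naive skin stood apart: it lacked any read for 336 genes that had at least 50 in the other 3 libraries each, against 0 to 5 genes of that kind in any of those. Of the members, Stard4 was among these, and Srebf2 was among the 463 genes under 10 reads in that library and at 50 or more elsewhere. Egr1 had 3494 reads in KO-labelled HDM skin, 3158 in KO-labelled naive skin, 1174 in WT HDM skin and 1966 in WT naive skin. It was thus not lower in the KO-labelled libraries, and since reads at a gene's 3′ end need not come from the part that was disrupted, this checks no label. Groups are therefore named by their labels. Sex-linked transcripts split by treatment: Xist had 2433 reads in KO-labelled HDM skin, 40 in KO-labelled naive skin, 2195 in WT HDM skin and 10 in WT naive skin, and Ddx3y had 1 read in each HDM library, 2430 reads in KO-labelled naive skin and 1925 in WT naive skin. Sex and HDM treatment cannot be told apart in these 4 libraries. Keratinocyte markers were present in all (12 of 12 measured, summing to 21540, 8825, 26270 and 10550 RPM, reads per 1000000 of the library, in the order KO-labelled HDM, KO-labelled naive, WT HDM and WT naive). Salivary and lacrimal markers summed to 15.8, 8251, 73.2 and 71870 RPM and cartilage markers to 7.82, 2465, 1536 and 2779, so markers of tissue other than skin differed between the libraries. Hair shaft and root sheath markers summed to 7565, 91.5, 3007 and 57.1 RPM in the same order. Immune markers summed to 8446, 751.7, 19940 and 538.5 RPM, with S100a8 and S100a9 giving most of the sum in each HDM library. These sums do not describe the list gene by gene. Its 10 measured genes had a median log2 difference, HDM minus naive, of −0.43 in KO-labelled skin and 0.42 in WT skin. In KO-labelled skin 3 passed 2-fold upwards and 5 downwards, and in WT skin 3 upwards and 1 downwards. For both labels the upward genes were S100a8, S100a9 and Cxcr2. The part of any of these tissues in the members' values was not tested.

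The 28 members together took 4339 RPM in KO-labelled HDM skin, 3224 in KO-labelled naive skin, 3458 in WT HDM skin and 4353 in WT naive skin. The KO-labelled HDM and WT naive libraries were thus near each other and above the other 2. Msmo1, the gene of the sterol C4-methyl oxidase, alone gave 15.1%, 17.7%, 9.09% and 23.7% of the members' reads in the same order. Levels below are deposited log2 values, log2(x + 1), where x is the reads of a gene after the authors' scaling. Folds are given on that scale with exact 95% counting intervals in parentheses. With 1 library per group these comparisons have no test and no replicate error, and the intervals cover counting error only. An additive model over all 4 libraries, given last, has a test that rests on 1 residual degree of freedom.

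**Figure D1:**
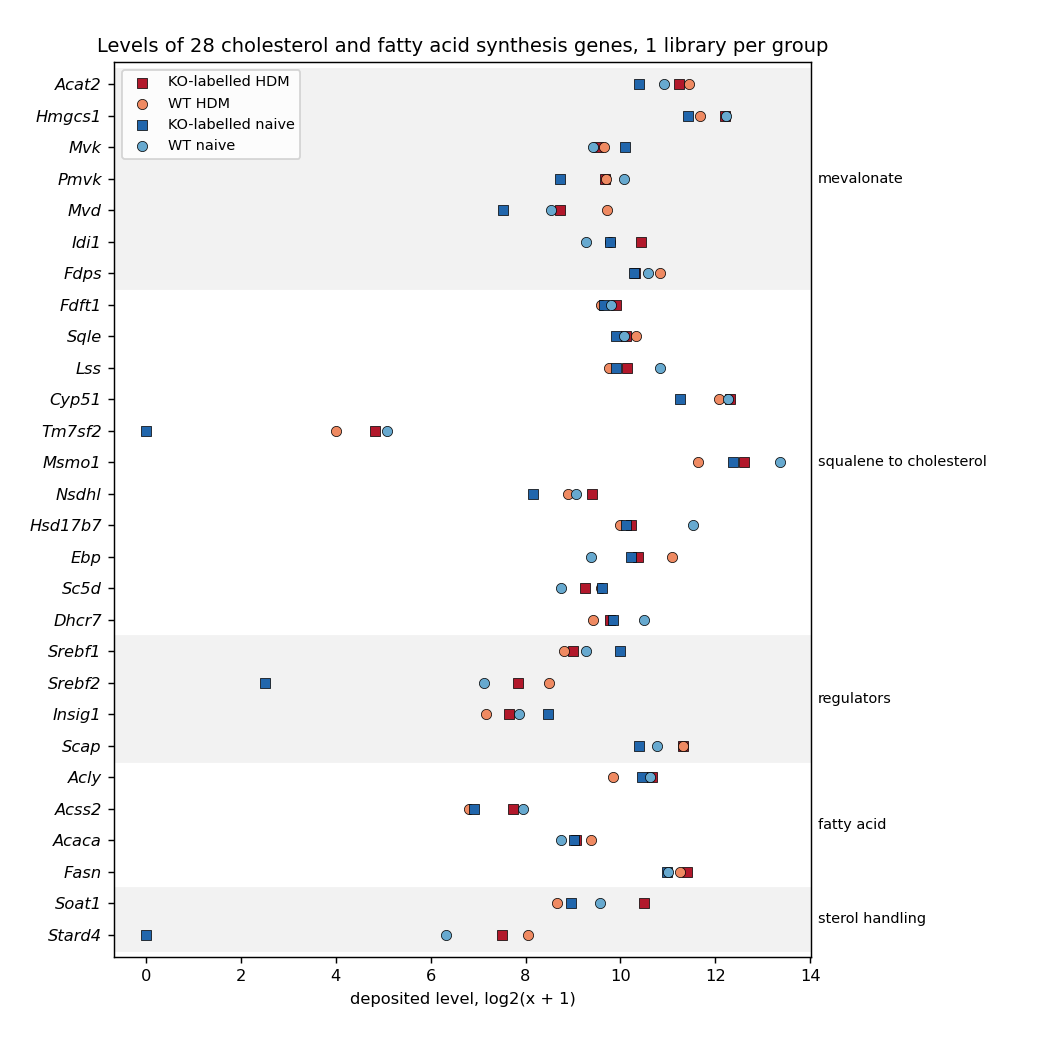
Deposited log2 value (log2(x + 1), horizontal axis) of each of the 28 members, 1 point per library, grouped by role. Srebf2, Tm7sf2 and Stard4 have their KO-labelled naive point far to the left, at 2.50, 0 and 0, and Soat1 has its KO-labelled HDM point to the right of its other 3, at 10.50.

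HDM was compared with naive skin within each genotype label. In KO-labelled skin, 6 of the 27 measured members (22.2%) were higher by 2-fold or more under HDM, against 21.8% of all measured genes, and 0 members were lower, against 18.3% of all measured genes. The 6 were Mvd, Cyp51, Nsdhl, Srebf2, Soat1 and Stard4. In WT skin, 4 members (14.8%) were higher, against 14.5% of all measured genes, namely Mvd, Ebp, Srebf2 and Stard4. The 5 lower members in WT skin (18.5%, against 12.8% of all measured genes) were Lss, Msmo1, Hsd17b7, Dhcr7 and Acss2. Shares of higher members were thus near the background in both. The median member differed by 0.26 in KO-labelled skin, where all measured genes had a median of 0.06. In WT skin the median member differed by −0.15, where all measured genes had 0.03. Of the 27, 22 had a positive difference in KO-labelled skin and 13 in WT skin. Above the median of all measured genes lay 20 of the 27 in KO-labelled skin and 13 in WT skin. Without the genes low in KO-labelled naive skin alone, an alternative chosen after seeing the data, 4 of 25 members were higher in KO-labelled skin and 2 of 25 in WT skin. Scaled to equal read totals, KO-labelled skin had 6 higher and 1 lower member, Srebf1. Shares over all measured genes are not given for these alternatives, nor for later ones unless printed beside the count. Such counts do not compare members with the background.

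**Figure D2:**
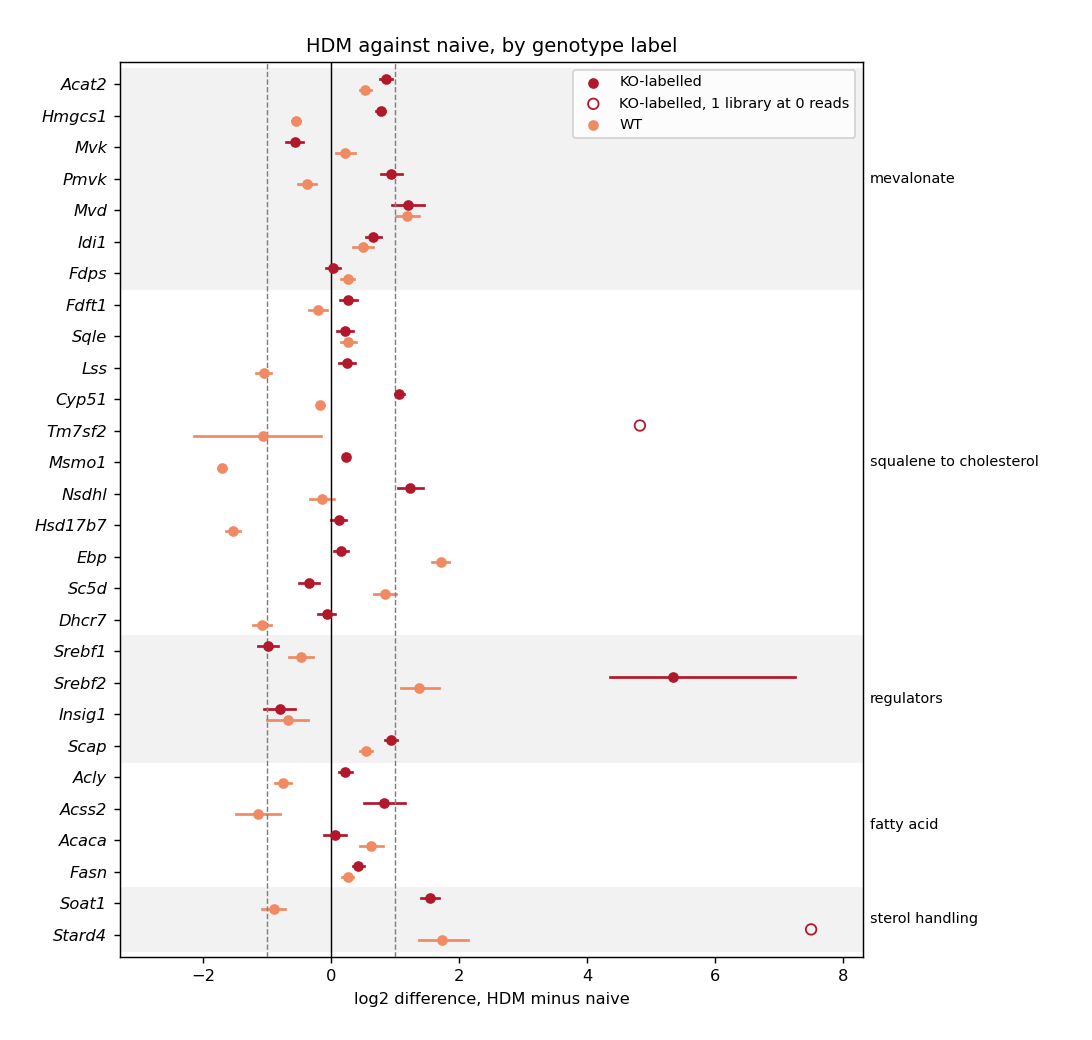
Difference of deposited log2 values, HDM minus naive (horizontal axis), for each member, with KO-labelled skin above WT skin. Bars are exact 95% counting intervals, open circles have a library at 0 reads, and dashed lines mark 2-fold. Msmo1, Lss and Hsd17b7 lie left of −1 in WT skin and slightly right of 0 in KO-labelled skin.

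Of the 7 mevalonate genes, 1, Mvd, was higher by 2-fold or more under HDM in each label, and 0 were lower. They stand beside shares over all measured genes given above (21.8% and 14.5% higher in KO-labelled and WT skin, 18.3% and 12.8% lower). Their median difference was 0.77 in KO-labelled skin and 0.25 in WT skin. Mvd encodes mevalonate diphosphate decarboxylase, which makes isopentenyl diphosphate, the pathway's building block. Mvd had log2 values of 8.72 in KO-labelled HDM skin and 7.52 in KO-labelled naive skin, and of 9.72 in WT HDM skin and 8.54 in WT naive skin. It was higher under HDM by a like amount in both, 2.30-fold higher (1.94 to 2.73) in KO-labelled skin and 2.27-fold higher (2.00 to 2.59) in WT skin. Both KO-labelled libraries were below their WT counterparts. Hmgcs1 had log2 values of 12.20 in KO-labelled HDM skin and 11.43 in KO-labelled naive skin, and of 11.67 in WT HDM skin and 12.22 in WT naive skin. It was 1.70-fold higher (1.63 to 1.78) under HDM in KO-labelled skin and 1.47-fold lower (1.40 to 1.54) in WT skin, so its lowest library was KO-labelled naive and its highest, within 0.1 log2 units, were KO-labelled HDM and WT naive. Pmvk, the gene of phosphomevalonate kinase, had log2 values of 9.67 in KO-labelled HDM skin and 8.73 in KO-labelled naive skin, and of 9.70 in WT HDM skin and 10.08 in WT naive skin. The KO-labelled naive library was the low one, and the other 3 lay close together. Under HDM, Pmvk was 1.91-fold higher (1.71 to 2.15) in KO-labelled skin and 1.30-fold lower (1.18 to 1.43) in WT skin.

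Mvk encodes mevalonate kinase, the step before Pmvk, and went the other way in KO-labelled skin. Its log2 values were 9.53 (KO-labelled HDM), 10.10 (KO-labelled naive), 9.65 (WT HDM) and 9.43 (WT naive), so that KO-labelled naive skin was the high library. Under HDM it was 1.49-fold lower (1.36 to 1.63) in KO-labelled skin and 1.16-fold higher (1.05 to 1.29) in WT skin. Idi1, the isopentenyl diphosphate isomerase gene, had log2 values of 10.43 (KO-labelled HDM), 9.78 (KO-labelled naive), 9.78 (WT HDM) and 9.28 (WT naive). It was higher under HDM for both labels, by 0.65 and 0.49 log2 units in KO-labelled and WT skin. Acat2, whose enzyme joins acetyl-CoA units at the start of the pathway, had log2 values of 11.25 (KO-labelled HDM), 10.40 (KO-labelled naive), 11.45 (WT HDM) and 10.92 (WT naive). It was also higher under HDM for both, by 0.85 in KO-labelled and 0.53 in WT skin. Fdps, the farnesyl diphosphate synthase gene, had log2 values of 10.32 (KO-labelled HDM), 10.29 (KO-labelled naive), 10.83 (WT HDM) and 10.58 (WT naive). Both KO-labelled libraries were slightly below the WT ones, and HDM differences were 0.03 in KO-labelled skin, within counting error, and 0.25 in WT skin. Its 3′ end shares stretches of 50 bases with several pseudogene or readthrough loci, including Gm3571 and Gm43738, so its reads may be split between them.

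The path between farnesyl diphosphate and cholesterol held 4 of the 5 members that were lower in WT HDM skin by 2-fold. Of its 10 measured genes, 4 were lower and 1 higher by 2-fold or more in WT skin, with a median of −0.19, while 0 were lower and 2 higher in KO-labelled skin, with a median of 0.22. The counts of higher genes are near the shares over all measured genes given above. Of all measured genes, 12.8% were lower in WT skin and 18.3% in KO-labelled skin. This path supplies 10 of the 27 measured members, so the counts are small. Msmo1 (chr8:64718139-64733792 on GRCm38, minus strand), which removes the methyl groups at sterol carbon 4, had 6639 reads in KO-labelled HDM skin, 5682 in KO-labelled naive skin, 2964 in WT HDM skin and 9916 in WT naive skin. Its log2 values were 12.61 (KO-labelled HDM), 12.38 (KO-labelled naive), 11.64 (WT HDM) and 13.35 (WT naive). WT naive skin was the high library and WT HDM skin the low one, with both KO-labelled libraries between them. It was 1.17-fold higher (1.13 to 1.22) under HDM in KO-labelled skin and 3.28-fold lower (3.15 to 3.42) in WT skin.

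Hsd17b7 encodes the ketosteroid reductase of the same demethylation complex. Its log2 values were 10.23 (KO-labelled HDM), 10.11 (KO-labelled naive), 10.00 (WT HDM) and 11.54 (WT naive), so WT naive skin stood above the other 3 libraries, which spanned 10.00 to 10.23. It was 1.08-fold higher (0.9998 to 1.17) under HDM in KO-labelled skin, within counting error, and 2.90-fold lower (2.70 to 3.13) in WT skin. Lss, the lanosterol synthase gene, had log2 values of 10.14 (KO-labelled HDM), 9.90 (KO-labelled naive), 9.77 (WT HDM) and 10.83 (WT naive), with WT naive skin again the high library. Under HDM it was 1.18-fold higher (1.09 to 1.29) in KO-labelled skin and 2.08-fold lower (1.92 to 2.27) in WT skin. Dhcr7, whose enzyme makes cholesterol out of 7-dehydrocholesterol, had log2 values of 9.78 (KO-labelled HDM), 9.85 (KO-labelled naive), 9.42 (WT HDM) and 10.50 (WT naive). WT naive skin was the high library here too. Dhcr7 under HDM was 1.05-fold lower (0.963 to 1.16) in KO-labelled skin, within counting error, and 2.11-fold lower (1.92 to 2.33) in WT skin.

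Cyp51 and Nsdhl were low in KO-labelled naive skin. Cyp51, the lanosterol 14-alpha-demethylase gene, had log2 values of 12.32 (KO-labelled HDM), 11.26 (KO-labelled naive), 12.09 (WT HDM) and 12.26 (WT naive). Under HDM, Cyp51 was 2.08-fold higher (1.99 to 2.19) in KO-labelled skin and 1.12-fold lower (1.08 to 1.17) in WT skin. Nsdhl, the sterol dehydrogenase of the demethylation complex, had log2 values of 9.39 (KO-labelled HDM), 8.16 (KO-labelled naive), 8.90 (WT HDM) and 9.05 (WT naive). It was 2.35-fold higher (2.05 to 2.69) in KO-labelled skin and 1.11-fold lower (0.975 to 1.26) in WT skin, the last within counting error. Cyp51 exons overlap those of Akap9 on the opposite strand, and whether reads were counted by strand is not given in the sources used here. Akap9 was also low in KO-labelled naive skin, with log2 values of 10.29 (KO-labelled HDM), 9.25 (KO-labelled naive), 10.61 (WT HDM) and 10.46 (WT naive).

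Ebp (chrX:8185329-8193512, minus strand) and Sc5d ran against these. Ebp encodes the sterol delta8-delta7 isomerase and had log2 values of 10.37 (KO-labelled HDM), 10.22 (KO-labelled naive), 11.09 (WT HDM) and 9.39 (WT naive). WT HDM skin was its high library and WT naive skin its low one. It was 1.11-fold higher (1.03 to 1.20) under HDM in KO-labelled skin and 3.27-fold higher (2.99 to 3.58) in WT skin. Sc5d, the lathosterol oxidase gene, had log2 values of 9.26 (KO-labelled HDM), 9.60 (KO-labelled naive), 9.58 (WT HDM) and 8.74 (WT naive), lowest in WT naive skin. It was 1.27-fold lower (1.15 to 1.41) in KO-labelled skin and 1.79-fold higher (1.58 to 2.02) in WT skin. Ebp and Nsdhl lie on the X chromosome and the other members do not. Fdft1, the squalene synthase gene, had log2 values of 9.91 (KO-labelled HDM), 9.65 (KO-labelled naive), 9.60 (WT HDM) and 9.81 (WT naive), a span under 0.5, and shares exon bases with Ctsb on the opposite strand. Sqle, the squalene epoxidase gene, had 10.12 (KO-labelled HDM), 9.91 (KO-labelled naive), 10.33 (WT HDM) and 10.07 (WT naive), likewise a span under 0.5. HDM differences of Fdft1 were 0.26 in KO-labelled and −0.21 in WT skin, and those of Sqle were 0.21 and 0.27. Tm7sf2, a sterol delta14-reductase gene below the measured limit, had 29 reads in KO-labelled HDM skin, 0 in KO-labelled naive skin, 14 in WT HDM skin and 31 in WT naive skin, and overlaps Vps51 on the same strand.

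Among the regulators, Srebf2 was low in 1 library. Srebf2 (chr15:82147181-82205379, plus strand) had 242 reads in KO-labelled HDM skin, 5 in KO-labelled naive skin, 336 in WT HDM skin and 132 in WT naive skin, with log2 values of 7.83 (KO-labelled HDM), 2.50 (KO-labelled naive), 8.50 (WT HDM) and 7.13 (WT naive). It was 48.5-fold higher (20.5 to 151) under HDM in KO-labelled skin, a value that rests on the 5 reads of the naive library, and 2.60-fold higher (2.12 to 3.20) in WT skin. Srebf1 differed the other way, with log2 values of 8.99 (KO-labelled HDM), 9.98 (KO-labelled naive), 8.81 (WT HDM) and 9.28 (WT naive). It was 1.99-fold lower (1.79 to 2.21) under HDM in KO-labelled skin and 1.39-fold lower (1.22 to 1.58) in WT skin. Its naive libraries were the 2 high ones. Srebf1 exons overlap those of Rai1 on the opposite strand, and Rai1 had log2 values of 6.69 (KO-labelled HDM), 8.01 (KO-labelled naive), 6.88 (WT HDM) and 7.16 (WT naive).

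Insig1 and Scap sit at the sterol switch itself. Insig1, itself a known SREBP target, had log2 values of 7.66 (KO-labelled HDM), 8.46 (KO-labelled naive), 7.17 (WT HDM) and 7.85 (WT naive), lower under HDM for both labels. It was 1.75-fold lower (1.48 to 2.08) in KO-labelled skin and 1.61-fold lower (1.29 to 2.01) in WT skin. Scap had log2 values of 11.31 (KO-labelled HDM), 10.38 (KO-labelled naive), 11.31 (WT HDM) and 10.77 (WT naive), higher under HDM for both labels and equal to 1 decimal between labels within HDM. It was 1.90-fold higher (1.78 to 2.03) in KO-labelled skin and 1.46-fold higher (1.37 to 1.55) in WT skin. The 2 HDM libraries thus had more Scap and less Insig1 and Srebf1 than the naive library of the same label.

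Of the 4 fatty acid synthesis genes, 1 passed 2-fold under HDM, Acss2 in WT skin, and the medians were 0.32 in KO-labelled and −0.25 in WT skin. Fasn, the fatty acid synthase gene, had log2 values of 11.40 (KO-labelled HDM), 10.98 (KO-labelled naive), 11.25 (WT HDM) and 10.99 (WT naive), all within 0.5 log2 units. It was 1.34-fold higher (1.27 to 1.42) under HDM in KO-labelled skin and 1.19-fold higher (1.12 to 1.27) in WT skin. Acaca encodes acetyl-CoA carboxylase, which makes malonyl-CoA for it, and had log2 values of 9.07 (KO-labelled HDM), 9.02 (KO-labelled naive), 9.38 (WT HDM) and 8.75 (WT naive), highest in WT HDM skin. It was 1.04-fold higher (0.921 to 1.17) under HDM in KO-labelled skin, within counting error, and 1.54-fold higher (1.36 to 1.75) in WT skin. Acly makes cytosolic acetyl-CoA out of citrate. Its log2 values were 10.66 (KO-labelled HDM), 10.45 (KO-labelled naive), 9.85 (WT HDM) and 10.61 (WT naive), with WT HDM skin the low library, 1.16-fold higher (1.08 to 1.25) under HDM in KO-labelled skin and 1.69-fold lower (1.56 to 1.84) in WT skin. Acss2, which makes acetyl-CoA out of acetate, had 226 reads in KO-labelled HDM skin, 128 in KO-labelled naive skin, 103 in WT HDM skin and 233 in WT naive skin. The KO-labelled naive and WT HDM libraries were the low ones. Acss2 was 1.77-fold higher (1.42 to 2.22) under HDM in KO-labelled skin and 2.22-fold lower (1.75 to 2.82) in WT skin. Acss2 exons overlap Ggt7 and Gss on the opposite strand.

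The sterol handling genes Soat1 and Stard4 gave large differences. Soat1 (chr1:156424525-156474331, minus strand) encodes the enzyme that esterifies cholesterol for storage. It had 1537 reads in KO-labelled HDM skin, 529 in KO-labelled naive skin, 377 in WT HDM skin and 718 in WT naive skin, with log2 values of 10.50 (KO-labelled HDM), 8.95 (KO-labelled naive), 8.67 (WT HDM) and 9.57 (WT naive). KO-labelled HDM skin stood above the other 3 libraries. Under HDM it was 2.92-fold higher (2.64 to 3.22) in KO-labelled skin and 1.87-fold lower (1.65 to 2.12) in WT skin. Stard4, whose protein carries cholesterol between membranes, had 191 reads in KO-labelled HDM skin, 0 in KO-labelled naive skin, 246 in WT HDM skin and 75 in WT naive skin. Taking 3 reads as the limit a count of 0 allows, it was at least 63.9-fold higher under HDM in KO-labelled skin, and it was 3.35-fold higher (2.58 to 4.40) in WT skin. That limit covers counting error only, and KO-labelled naive skin was the library with the 336 zeros. Both HDM libraries were above both naive libraries for Stard4 and for Srebf2.

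Between genotype labels, the naive libraries differed more than the HDM libraries. In naive skin, 7 of 27 members (25.9%) were lower by 2-fold or more in the KO-labelled library, against 17.1% of all measured genes, and 0 were higher, against 13.7%. The 7 were Pmvk, Mvd, Cyp51, Hsd17b7, Srebf2, Acss2 and Stard4. The median member differed by −0.53 and the median measured gene by −0.03, and 20 of 27 had a negative difference. Above the median measured gene lay 8 of the 27. Scaled to equal read totals, the median of all measured genes in this comparison moved to 0.09 and 4 members remained lower (Pmvk, Hsd17b7, Srebf2 and Stard4). Without the genes low in KO-labelled naive skin alone, 5 of 25 were lower. In HDM skin, 1 member, Soat1, was higher in the KO-labelled library (3.70%, against 3.06% of all measured genes) and 1, Mvd, was lower (3.70%, against 4.67%). The median there was 0.19, against −0.01 over all measured genes, and that scaling gave 3 higher (Msmo1, Acss2 and Soat1) and 0 lower.

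Hsd17b7 was 2.69-fold lower (2.52 to 2.88) in KO-labelled than in WT naive skin, and 1.17-fold higher (1.07 to 1.27) in HDM skin. Pmvk was 2.56-fold lower (2.29 to 2.86) in KO-labelled naive skin, and within counting error in HDM skin at −0.04 log2 units. Mvd was the member 2-fold lower in the KO-labelled library under both treatments, 2.04-fold lower (1.71 to 2.44) in naive skin and 2.01-fold lower (1.79 to 2.27) in HDM skin. Soat1 was 1.53-fold lower (1.37 to 1.72) in KO-labelled naive skin and 3.55-fold higher (3.17 to 3.99) in KO-labelled HDM skin. Idi1 and Insig1 were above WT in both KO-labelled libraries, Idi1 by 0.50 in naive and 0.66 in HDM skin and Insig1 by 0.61 and 0.48 log2 units. Srebf2 was 29.8-fold lower (12.4 to 93.2) in KO-labelled naive skin, again on 5 reads, and 1.59-fold lower (1.35 to 1.89) in HDM skin. Stard4 was at least 28.2-fold lower in naive and 1.48-fold lower (1.22 to 1.80) in HDM skin. The naive comparison uses the same KO-labelled naive library as the HDM comparison in KO-labelled skin, so these values are not separate evidence.

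**Figure D3:**
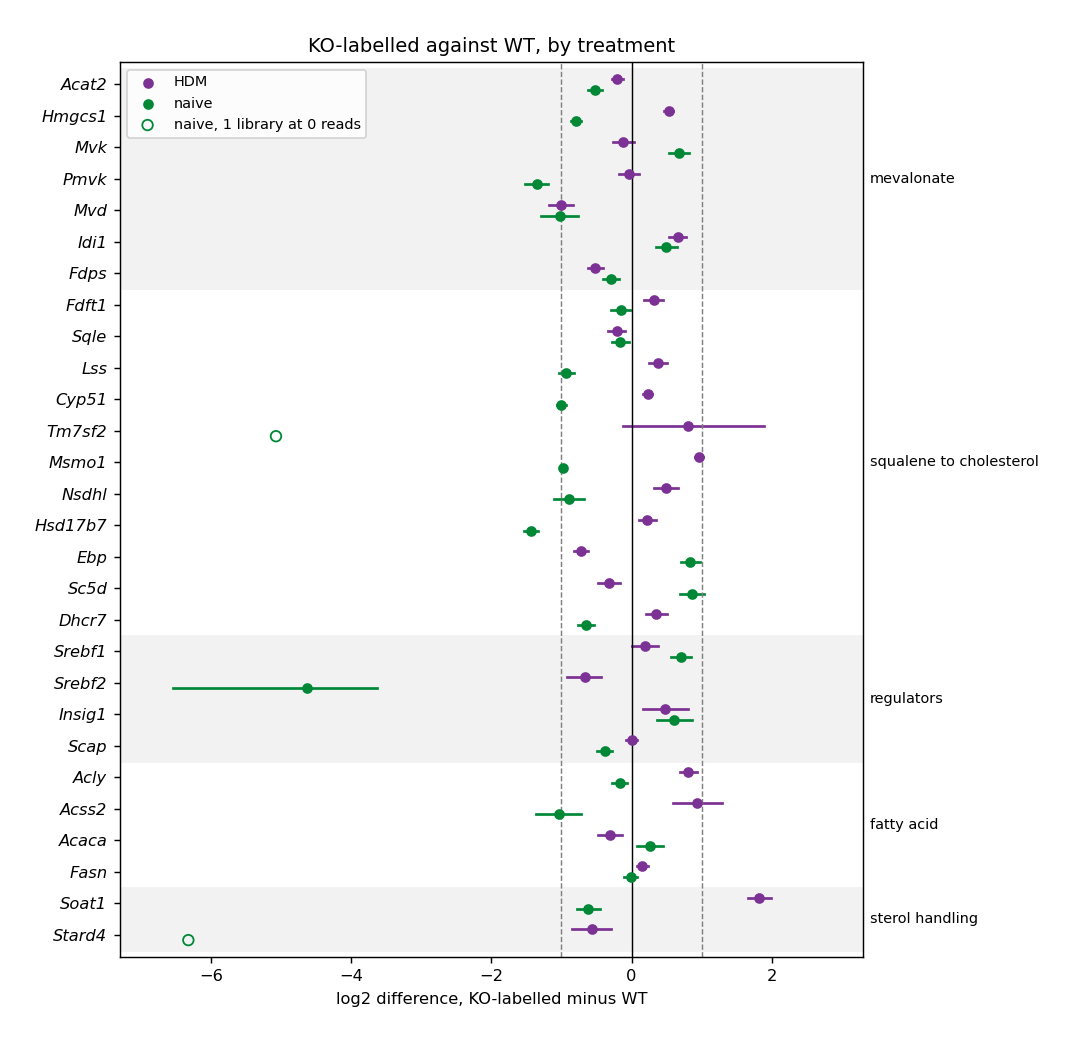
Difference of deposited log2 values, KO-labelled minus WT (horizontal axis), for each member, with HDM skin above naive skin. Bars are exact 95% counting intervals, open circles have a library at 0 reads, and dashed lines mark 2-fold. In naive skin 20 of the 27 measured members lie left of 0, and in HDM skin 11 do. Above the median of all measured genes lie 8 members in naive skin and 16 in HDM skin.

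The HDM difference in KO-labelled skin minus that in WT skin has no residual error in this design and was not tested. It was 1 or more for 12 of 27 members (44.4%), against 19.6% of all measured genes, and −1 or less for 2 (7.41%), Ebp and Sc5d, against 17.4%. The 12 were Hmgcs1, Pmvk, Lss, Cyp51, Msmo1, Nsdhl, Hsd17b7, Dhcr7, Srebf2, Acss2, Soat1 and Stard4. Of these 12, 6 act between farnesyl diphosphate and cholesterol, as do 10 of all 27 measured members. Without the genes low in KO-labelled naive skin alone, 10 of 25 members were at 1 or more and 2 at −1 or less. The median was 0.47 for members and 0.04 for all measured genes. By sign alone, 11 members (40.7%) were higher under HDM for both labels, near the 35% of all measured genes, and 3 (11.1%), Srebf1, Insig1 and Dhcr7, were lower for both, against 31.4%. Another 11 (40.7%) were higher in KO-labelled and lower in WT skin, against 17.1% of all measured genes, and 2 (7.41%), Mvk and Sc5d, showed the reverse, against 16.5%.

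Other genes of lipid metabolism are given by their counts, to be read against the shares of all measured genes above. Of 24 measured further SREBP pathway genes, under HDM 3 passed 2-fold upwards and 5 downwards in KO-labelled skin, and 0 upwards and 8 downwards in WT skin, with medians of −0.06 and −0.42. Between labels, KO-labelled HDM skin had 7 of the 24 above WT by 2-fold and 0 below, with a median of 0.38. Scd1, the stearoyl-CoA desaturase gene, had log2 values of 14.17 (KO-labelled HDM), 16.26 (KO-labelled naive), 12.44 (WT HDM) and 16.13 (WT naive). It was lower under HDM for both labels, and lowest in WT HDM skin. Among 15 measured genes of liver X receptor signalling and sterol efflux, 1 was higher and 3 lower under HDM in KO-labelled skin, and 2 higher and 1 lower in WT skin. Abcg1, a cholesterol exporter gene, had log2 values of 7.20 (KO-labelled HDM), 7.72 (KO-labelled naive), 8.02 (WT HDM) and 6.12 (WT naive), lowest in WT naive skin. Fatty acid oxidation had 14 measured genes, with 3 higher and 2 lower under HDM in KO-labelled skin, and 0 higher and 3 lower in WT skin. Ppara, a nuclear receptor that drives this pathway, had log2 values of 5.82 (KO-labelled HDM), 6.49 (KO-labelled naive), 5.50 (WT HDM) and 7.33 (WT naive), higher in the naive library of each label.

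Sebaceous gland markers differed between the same libraries. Under HDM in KO-labelled skin, 5 of 13 measured markers passed 2-fold upwards and 2 downwards, with a median of 0.23. Shares of all measured genes there were 21.8% and 18.3%. WT skin had 1 upwards and 8 downwards (median −1.55), against 14.5% and 12.8% of all measured genes. Between labels, KO-labelled HDM skin had 9 of the 13 above WT by 2-fold and 0 below (median 1.36). Of all measured genes, 3.06% were above and 4.67% below in that comparison. KO-labelled naive skin had 0 above and 5 below (median −0.53), against 13.7% and 17.1% of all measured genes. Markers summed to 5872 RPM in KO-labelled HDM skin, 11120 in KO-labelled naive skin, 2691 in WT HDM skin and 10780 in WT naive skin. Scd1, which is also among the SREBP pathway genes above, gave most of the naive sums. Mc5r and Awat2 were the 2 of 16 at 0 in KO-labelled naive skin, and Mc5r also was in KO-labelled HDM skin. Fa2h, a fatty acid hydroxylase gene of the gland, had log2 values of 11.86 (KO-labelled HDM), 12.75 (KO-labelled naive), 9.66 (WT HDM) and 13.58 (WT naive). Cidea, a lipid droplet gene, had 10.34 (KO-labelled HDM), 10.11 (KO-labelled naive), 8.58 (WT HDM) and 11.92 (WT naive). The 5 markers higher under HDM in KO-labelled skin were Awat1, Dgat2l6, Elovl3, Krt79 and Fabp5. Dgat2l6 had 7.39 (KO-labelled HDM), 3.61 (KO-labelled naive, on 12 reads), 6.04 (WT HDM) and 6.66 (WT naive). The sterol genes summed to 2028, 1589, 1538 and 2491 RPM in the same order of libraries. Adipocyte markers summed to 2529, 7233, 1220 and 2315, with Plin1 and Ucp1 the 2 of 15 at 0 in KO-labelled naive skin. The part of these cell types in the members' values was not tested, and in whole skin fewer cells of a type and less RNA per cell cannot be told apart.

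**Figure D4:**
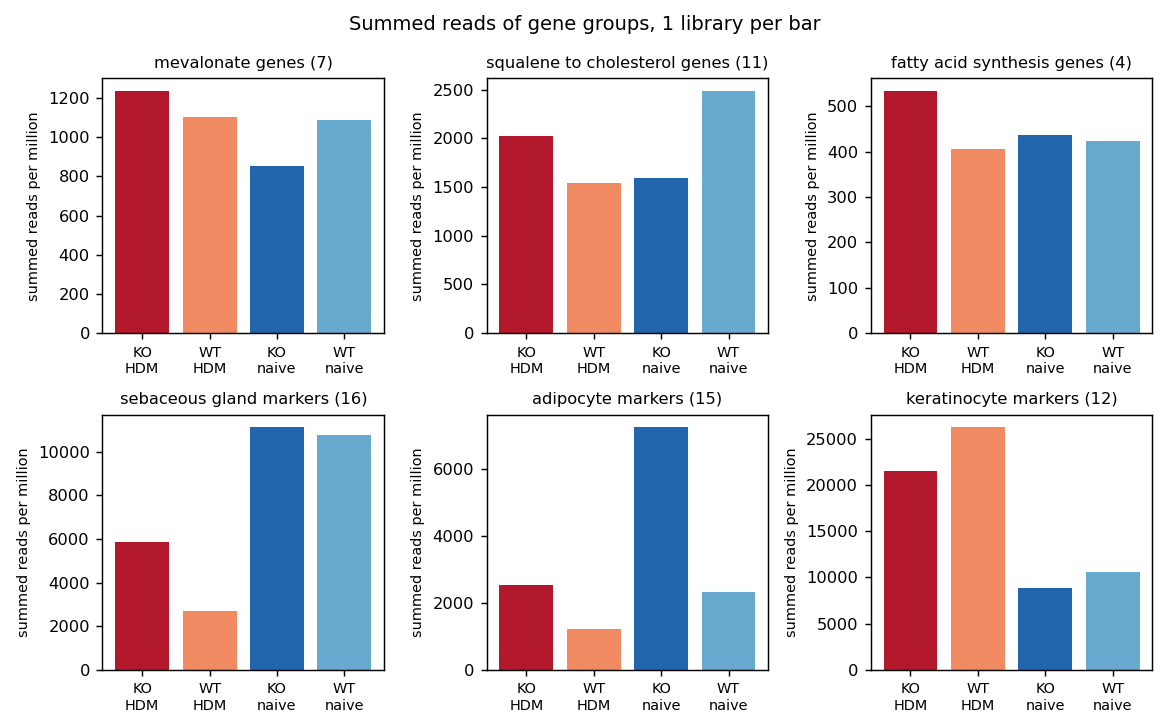
Summed RPM (reads per 1000000, vertical axes starting at 0), 1 bar per library. Shown are the mevalonate genes, the genes between farnesyl diphosphate and cholesterol, the fatty acid synthesis genes and 3 marker lists. The regulators and the sterol handling genes are not drawn. WT HDM skin is the lowest bar for sebaceous gland markers (2691) and for the genes between farnesyl diphosphate and cholesterol (1538). KO-labelled naive skin is near it for the latter genes (1589) but is the highest bar for sebaceous gland markers (11120). Scd1 alone gave 83904 of the 110416 marker reads there. By gene, 0 of 13 measured markers were above WT naive skin by 2-fold and 5 were below (median −0.53). The mevalonate genes span 855.1 to 1239.

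A model with a treatment term and a genotype term over all 4 libraries left 1 residual degree of freedom per gene. With limma and Benjamini-Hochberg adjustment over 11624 genes, 0 members were called for HDM, where 2.25% of measured genes were called higher and 1.86% lower. The smallest adjusted p of a member was 0.116, for Srebf2. At an unadjusted p under 0.05, limma had 4 members for the HDM term (14.8%, against 20.4% of measured genes), Srebf2, Stard4, Mvd and Scap. For the genotype term, 0 members and 0% of measured genes were called in either direction, and 2 members, Srebf2 and Mvd, had an unadjusted p under 0.05 (7.41%, against 3.29% of measured genes). Mvd had an HDM term of 1.19 ± 0.42 (SE) and a KO-label term of −1.02 ± 0.42, with adjusted p of 0.158 and 1 by limma. The model assumes that both labels respond alike, and Msmo1, Hsd17b7 and Soat1 had differing HDM values between labels. Srebf2 and Stard4 had 5 and 0 reads in KO-labelled naive skin. Their HDM differences were larger in KO-labelled than in WT skin, by 3.96 and 5.76 log2 units. The share of genes called for HDM also depended on the intensity trend used in limma. Without the trend, 15 of 11624 measured genes and 0 members were called for HDM.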

How the data were processed

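Total RNA, 500 ng per library, entered the Lexogen QuantSeq kit, per the labels' protocols, so values reflect 3′ ends. The authors deposited 1 table of log2 values per library. The submitters' processing notes name Bowtie2, bedtools and the build mm10 with no version, and the normalization is not given in the sources used here. Low values, converted back as 2 to the power of the value minus 1, fell on whole multiples of a step (0.9389 for KO-labelled HDM, 0.936 for KO-labelled naive, 1.078 for WT HDM and 1.056 for WT naive). Dividing by the step recovered reads: of genes with up to 200 reads, 98.99%, 95.93%, 98.86% and 99.19% were whole within 0.1 read. Counting intervals are exact (Clopper-Pearson, conditional on summed reads, 95%) and ignore the spread between animals. Without molecular identifiers reads are not molecules.

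The 35 symbols on more than 1 line were left out. The members, lists and tests were chosen with earlier results of these data known. A difference of 1 log2 unit or more counts as 2-fold. Named genes are all 28 members, up to 4 per further list with the largest HDM differences, and checks. Genes that overlap a member and single list genes given beside it were named after their values were seen. Python 3.11.15, R 4.3.3 and limma 3.58.1 (intensity trend, adjusted p under 0.05, tested on simulated data) were used. Alternatives covered scaling, centring, pseudocount, filters, zeros and the size rule.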

Additional observations from a re-analysis of the deposited data

Results flagged for a closer look

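In 11 members the HDM difference pointed one way in KO-labelled skin and the other way in WT skin, each beyond its counting interval (40.7% of the measured members, against 17.2% of all measured genes), and the difference between labels itself was not tested. The KO-labelled difference minus the WT difference, in log2 units, was 2.44 for Soat1, 1.96 for Acss2, 1.94 for Msmo1, 1.32 for Hmgcs1, 1.32 for Pmvk and 1.30 for Lss. It was 1.23 for Cyp51, 0.98 for Acly and 0.47 for Fdft1, also higher under HDM in KO-labelled and lower in WT skin. The reverse held for Sc5d at −1.18 and Mvk at −0.79. Each of these values includes the KO-labelled naive library, which had 336 genes at 0 that all other libraries detected with 50 or more reads.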

How the results depend on the processing

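No median of the members changed sign under any alternative run. Scaling to equal read totals gave 4 members lower in KO-labelled than WT naive skin (median −0.40), 1 lower under HDM in KO-labelled skin, and 3 higher and 0 lower in KO-labelled HDM skin. Median centring gave 4 lower in naive and 1 lower under HDM in KO-labelled skin. A pseudocount of 8 gave 4 lower in KO-labelled naive and 0 lower in KO-labelled HDM skin. Keeping only the upper quartile of genes left 2 higher under HDM in WT skin and 4 lower in KO-labelled naive skin (median −0.38). Leaving out genes low in KO-labelled naive skin alone, chosen after seeing the data, gave 2 higher in WT skin and a naive median of −0.38. Shares over all measured genes are not given for the counts up to here, so these do not compare members with the background. A 1.5-fold rule gave 12 higher (44.4%, against 32.3% of measured genes) and 2 lower (7.41%, against 28.4%) under HDM in KO-labelled skin, and 8 lower (29.6%, against 23.7%) in WT skin. By that rule KO-labelled naive skin had 5 members above WT (18.5%, against 24.7%) and 13 below (48.1%, against 27.4%), and KO-labelled HDM skin had 5 above (18.5%, against 9.82%) and 3 below (11.1%, against 12.2%). The additive limma fit called 1 member, Srebf2, higher under HDM without a filter (3.57%, against 4.41% of genes). It did so too with a filter that ignored KO-labelled naive skin (3.70%, against 5.37%). Srebf2 had 5 reads in that library. Limits were a factor of over 1.5 for counts and, for medians, the typical reach of a single member's counting interval to either side. By these limits 23 of the values under alternatives moved, and 133 moved less or not at all. The 133 include additive-fit counts that stayed at 0. They also include all 18 values with zeros set to 3 reads, which altered Stard4 alone among measured members. The cause of the shifts was not tested. The alternatives for the difference between the HDM differences were also chosen after seeing the data, and kept 9 to 13 members at 1 or more. No library could be left out, since each group has 1. No paired analysis was possible because each group has 1 library and no replicate numbers.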
